A study of Homo sapiens with 24 samples.

Results

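The transcription factors that set and keep gut epithelial identity were followed in RNA-seq libraries of 3 human colorectal cancer (CRC) cell lines, with and without β-CATENIN. The 8 genes, chosen by name for this role, were *CDX1*, *CDX2*, *HNF4A*, *HNF4G*, *GATA4*, *GATA6*, *FOXA1* and *FOXA2*, of 58051 gene identifiers in the files. All 8 had an identifier there. HT29, HCT116 and SW480 are established lines derived from colorectal carcinoma. In each line *CTNNB1*, which encodes the WNT pathway mediator β-CATENIN, was either left unedited (wild type, WT) or knocked out (KO). The knockout was a CRISPR/Cas9 deletion of exon 7 on both alleles, which shifts the reading frame. WT here does not mean free of WNT pathway mutations. The authors list inactivating mutations of the WNT pathway gene *APC* for HT29 and SW480, and gain-of-function mutations of *CTNNB1* itself for HCT116. Every group held 4 libraries, from 2 clones in rounds A and B, so there were 24 libraries from 12 clones. HT29 had WT clones 11 and 40 and KO clones 28 and 38. HCT116 had WT clones 4 and 6 and KO clones 44 and 47, and SW480 had WT clones 4 and 5 and KO clones 17 and 21. All cells grew in the same medium without further treatment. A clone grows from a single sorted cell, and the rounds of a clone repeat that clone, so a group holds 2 independent clones.

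The libraries held 22297049 to 29068378 reads on genes. *CTNNB1* RNA was lower in every KO library (187 to 1312 normalized counts) than in every WT library (5883 to 50939), in accord with all 24 labels. The 5 epithelial markers *EPCAM*, *CDH1*, *KRT8*, *KRT18* and *KRT19* were all present in every group. Of 15 markers of fibroblasts, blood, endothelium, liver and neuroendocrine cells, 1 to 6 reached a mean of 10 normalized counts in a group, and their summed level ran from 35.5 to 665 against 130800 to 739600 for the epithelial markers. Round A of HCT116 KO clone 47 stood apart, with 35449 genes detected against 20256 to 24944 in the other libraries, and 13923 genes at 1 to 3 reads against 3503 to 5738.

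CDX1 and CDX2 are homeobox factors of the intestinal epithelium, and CDX2 is the factor most used to mark intestinal origin. HNF4A and HNF4G are related nuclear receptors that act on genes of enterocyte differentiation and lipid handling. GATA4 and GATA6 are zinc-finger factors of the endoderm, with GATA4 used mainly in the proximal and GATA6 along the whole intestine, and FOXA1 and FOXA2 are forkhead pioneer factors that open chromatin for other endoderm factors. WNT/β-CATENIN signaling, through TCF/LEF proteins, patterns the hindgut and maintains the crypt, and in most CRCs it is active without ligand.

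The RefSeq promoter table (GRCh38.p14, 250 bases before to 50 after a start site) held 4 of the 8 genes. The promoters of *CDX2*, *FOXA1* and *GATA6* are shown because their RNA was called between KO and WT in at least 1 line. Capitals mark matches, on either strand, to the TCF/LEF motif, spelled CTTTGAA or with the ending changed as CTTTGAT or else as CTTTGTA or lastly as CTTTGTT, read 5′ to 3′ along the gene's strand. The *CDX2* window is chr13:27969266-27969565 (minus strand), the *FOXA1* window chr14:37595200-37595499 (minus strand) and the *GATA6* window chr18:22169339-22169638 (plus strand).
CDX2: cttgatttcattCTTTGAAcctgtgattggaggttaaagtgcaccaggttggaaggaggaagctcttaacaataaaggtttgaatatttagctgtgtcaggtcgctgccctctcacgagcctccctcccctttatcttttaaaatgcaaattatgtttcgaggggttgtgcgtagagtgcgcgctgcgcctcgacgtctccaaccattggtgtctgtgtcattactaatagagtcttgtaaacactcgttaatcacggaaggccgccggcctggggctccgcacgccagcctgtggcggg
FOXA1: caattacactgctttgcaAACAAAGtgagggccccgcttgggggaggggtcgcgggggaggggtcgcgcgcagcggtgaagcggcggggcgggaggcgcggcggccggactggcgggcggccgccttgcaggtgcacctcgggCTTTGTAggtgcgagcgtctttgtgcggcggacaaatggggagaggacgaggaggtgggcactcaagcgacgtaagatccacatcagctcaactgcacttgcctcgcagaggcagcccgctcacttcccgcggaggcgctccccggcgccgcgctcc
GATA6: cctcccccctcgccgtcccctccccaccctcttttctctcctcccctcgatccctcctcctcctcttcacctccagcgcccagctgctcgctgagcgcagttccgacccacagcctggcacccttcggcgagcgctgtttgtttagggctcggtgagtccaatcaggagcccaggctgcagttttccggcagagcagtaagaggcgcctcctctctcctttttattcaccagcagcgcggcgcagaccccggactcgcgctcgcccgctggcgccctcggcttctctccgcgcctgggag
The *CDX2* window held 1 match, the letters CTTTGAA starting 238 bases before the start site. The *FOXA1* window held 2, CTTTGTT on the reverse strand at 232 bases before the start and CTTTGTA at 107 bases before it, and these do not overlap. The *GATA6* window and both *HNF4A* windows held 0. Of 35116 promoter windows of 300 bases in the table, 13.8% held at least 1 match. A match describes these letters and does not show binding.

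On GRCh37, the build of the files, the genes lie on 6 chromosomes. *CDX1* is at chr5:149546341-149564121 on the plus strand, *CDX2* at chr13:28535055-28543452 on the minus strand, *HNF4A* at chr20:42984339-43061485 on the plus strand and *HNF4G* at chr8:76320149-76479069 on the plus strand. *GATA4* is at chr8:11534468-11617511 and *GATA6* at chr18:19749550-19782491, both on the plus strand, and *FOXA1* at chr14:38058757-38065264 and *FOXA2* at chr20:22561636-22566093, both on the minus strand. The library kit did not mark strand, so reads of *GATA6* and *GATA6-AS1*, of *HNF4A* and *HNF4A-AS1*, and of *FOXA1* and *TTC6* cannot be told apart where these genes overlap on opposite strands. *HNF4A-AS1* held at most 4.28 normalized counts in any library. *TTC6* reached 127 in HT29, against 1326 or more for *FOXA1* there.

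The WT cells of the 3 lines carried different sets of these factors. Levels are normalized counts per kb of exon, which allows genes of different length to be compared, as mean ± SD of 4 WT libraries. In HT29 the order was *FOXA1* (786 ± 42.4), *HNF4G* (250 ± 110), *GATA6* (144 ± 48.4), *HNF4A* (92.4 ± 94.6), *FOXA2* (19.8 ± 23.1) and *CDX2* (1.47 ± 0.95). From *HNF4G* down to *CDX2*, neighbors in this order overlapped within 1 SD. In HCT116 *CDX2* came first (176 ± 20.7), then *HNF4A* (53.5 ± 13.2), *GATA6* (33.0 ± 3.63), *HNF4G* (25.4 ± 4.54), *FOXA1* (15.8 ± 6.68) and *FOXA2* (1.36 ± 1.88), and *GATA6*, *HNF4G* and *FOXA1* overlapped with their neighbors within 1 SD. In SW480 *CDX2* also came first (318 ± 76.2), followed by *FOXA2* (169 ± 18.5), *HNF4A* (122 ± 17.7), *GATA6* (13.2 ± 3.50) and *FOXA1* (3.44 ± 1.67), each more than 1 SD apart from its neighbors. *CDX1* and *GATA4* held no read in any WT library, and *HNF4G* held none in SW480.

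**Figure D1:**
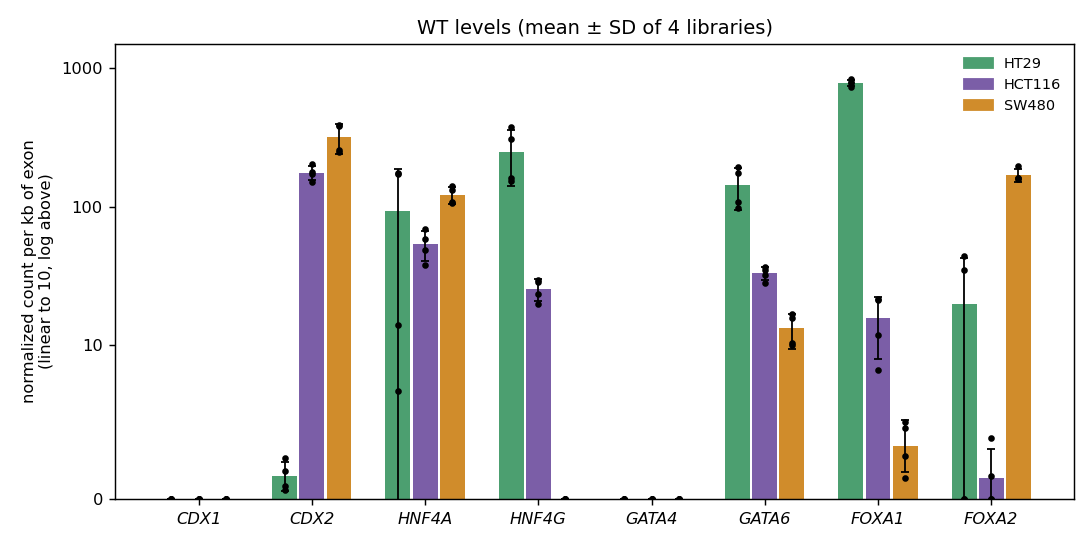
Levels of the 8 factors in WT cells, in normalized counts per kb of exon on an axis that is linear to 10 and logarithmic above, for HT29, HCT116 and SW480. Bars are means, error bars SD and points the 4 WT libraries of a line. *FOXA1* is highest in HT29, at 786 per kb, and *CDX2* is the highest of the factors in HCT116 and SW480, at 176 and 318 per kb.

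Between WT lines, 6 of the 8 factors passed the filter (at least 10 normalized counts in at least 4 libraries) and were tested with limma across all 24 libraries. A gene was called where the adjusted p was under 0.05 and the absolute log2 difference over 1. HT29 differed from HCT116 in 4 of 6 (37.3% of all tested genes were called), HT29 from SW480 in 5 of 6 (40% of all genes), and HCT116 from SW480 in 4 of 6 (39.9% of all genes). *FOXA1* fell in the order HT29, HCT116, SW480, with log2 differences of 5.72 ± 0.43 (SE, adjusted p = 1.07e-10) between the first pair and 2.14 ± 0.43 (adjusted p = 0.00018) between the second. *GATA6* had the same order, with 2.06 ± 0.38 (adjusted p = 5.96e-05) and 1.33 ± 0.38 (adjusted p = 0.0039, and 0.0779 without SW480 WT clone 4). *HNF4G* was 3.20 ± 0.27 higher on the log2 scale in HT29 than in HCT116 (adjusted p = 5.19e-10). Against a floor of 3 reads over the 4 SW480 WT libraries, *HNF4G* was at least 1410-fold higher in HT29 and at least 144-fold higher in HCT116.

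*CDX2* was lower in HT29 WT than in HCT116 by a log2 difference of -6.81 ± 0.44 (adjusted p = 5.47e-12) and than in SW480 by -7.64 ± 0.44 (adjusted p = 5.44e-13). HCT116 and SW480 differed in *CDX2* by -0.83 ± 0.44 (limma adjusted p = 0.108), which did not pass, while edgeR with TMM gave an adjusted p of 0.0421 and DESeq2 0.0172, both under the fold threshold. *HNF4A* passed in none of the 3 pairs (adjusted p = 0.787, 0.145 and 0.25). Its HT29 WT clones lay far apart, and without clone 11 HT29 was lower than HCT116 by -2.37 (adjusted p = 0.0167) and than SW480 by -3.58 (adjusted p = 0.000744). Without clone 40 the same differences turned to 1.73 (adjusted p = 0.0731) and 0.52 (adjusted p = 0.603). On the counts, HT29 lay above HCT116 by 0.81 in edgeR with TMM and 0.79 in DESeq2, and neither passed (adjusted p = 0.378 and 0.411). *FOXA2* was higher in SW480 WT than in HCT116 (1777 reads over 4 libraries against 15, adjusted p = 0.00247) and than in HT29 (adjusted p = 0.0197). The second call was lost without HT29 WT clone 40 (0.421) or either of its rounds (0.077 and 0.0756), without SW480 WT clone 4 (0.072) or 5 (0.0806), in edgeR with TMM (0.0532), in DESeq2 (0.163), with the round as a block (0.0915) and without the filter on low values (0.0612). *FOXA2* in HT29 and HCT116 WT differed by 1.90 ± 1.93 (adjusted p = 0.423), passed without HT29 WT clone 40 (5.23, adjusted p = 0.0433) and turned to -1.43 without HT29 WT clone 11 (adjusted p = 0.601).

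β-CATENIN loss in SW480 went with less *CDX2* and *FOXA2* and more *GATA6*. These were 3 of the 5 factors tested there, beside 17.5% of all tested genes called and 48.1% with an adjusted p under 0.05 at any fold. The authors report that SW480 KO clones, unlike those of HT29 and HCT116, became senescent on prolonged culture. The part of senescence in the SW480 values was not tested. *CDX2* read 881 and 857 normalized counts in rounds A and B of WT clone 4 and 1333 and 1315 in WT clone 5. In KO clone 17 it read 52.7 and 65.1, and in KO clone 21 165 and 142. All 4 KO libraries lay below all 4 WT libraries, and the mean in KO was 9.69% of that in WT. In bulk RNA, less RNA per cell and fewer cells with the RNA cannot be told apart. The log2 difference was -3.49 ± 0.36 (SE, limma adjusted p = 3.83e-05), and over the 4 pairs of a KO with a WT clone it ran from -4.48 to -2.50. The KO clones themselves differed in *CDX2*, by 1.37 ± 0.13 on the log2 scale (adjusted p = 2.05e-06, clone 21 higher).

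*GATA6* read 36.4, 37.7, 57.0 and 60.7 normalized counts in the SW480 WT libraries and 161, 174, 157 and 187 in the KO libraries. The groups did not overlap, and the KO mean was 3.54 times the WT mean. The log2 difference was 1.84 ± 0.20 (adjusted p = 2.74e-05), and all 4 clone pairs had the KO clone higher (1.49 to 2.18). *GATA6-AS1*, which overlaps the 5′ end of *GATA6*, read 0 to 2.76 in WT and 10.3 to 14.4 in KO, far fewer than the reads gained by *GATA6*.

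*FOXA2* read 409, 402, 500.0 and 407 in the SW480 WT libraries and 181, 234, 161 and 177 in the KO libraries. The groups were apart, with a log2 difference of -1.20 ± 0.13 (adjusted p = 4.14e-05) and 4 of 4 clone pairs lower in KO. With the reads of each clone summed, which leaves 2 KO against 2 WT clones, the adjusted p was 0.00644 for *CDX2*, 0.00936 for *GATA6* and 0.00952 for *FOXA2*. *LINC00261*, a long non-coding gene that neighbors *FOXA2*, read 15.2 to 33.8 in WT and 20.7 to 34.6 in KO.

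*HNF4A* read 503, 494, 613 and 661 in SW480 WT and 500, 525, 406 and 439 in KO. The groups overlapped, and the log2 difference of -0.28 ± 0.12 did not pass (adjusted p = 0.0905). Without KO clone 17 or without WT clone 4 it passed with the same direction (-0.42, adjusted p = 0.0263, and -0.45, adjusted p = 0.0302). Without WT clone 5 it shrank to -0.10 (adjusted p = 0.573), and with summed clones the adjusted p was 0.344. *FOXA1* was low in SW480, with 4.83 to 17.5 normalized counts in WT and 3.84 to 16.8 in KO (adjusted p = 0.675). *HNF4G*, *CDX1* and *GATA4* had no read in SW480.

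**Figure D2:**
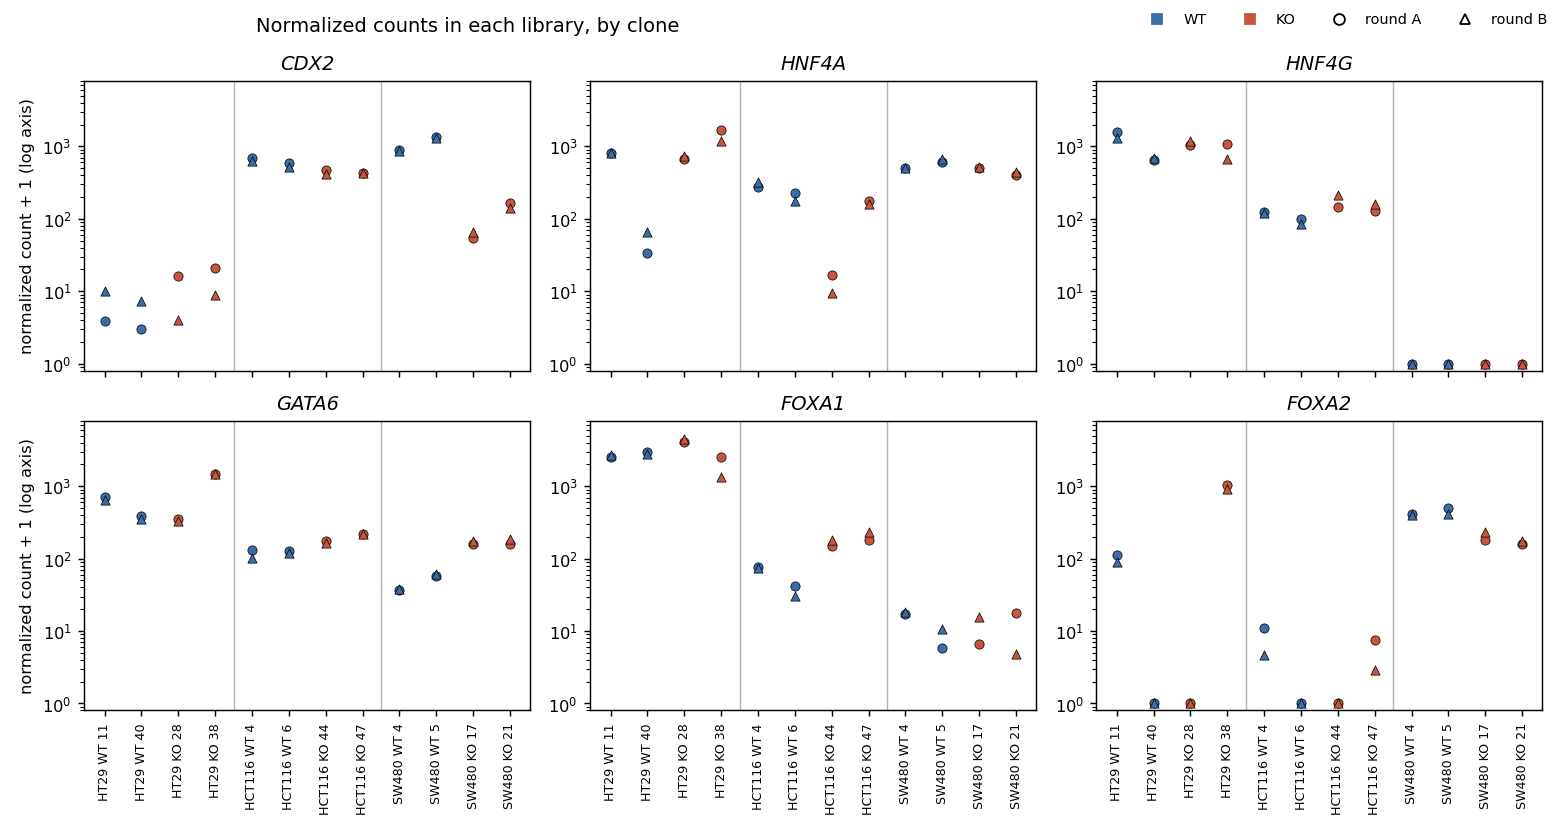
Normalized counts plus 1, on a log axis, of 6 factors in each of the 24 libraries, ordered by line, genotype and clone. Colors mark WT and KO, circles round A and triangles round B. In SW480 the KO libraries lie below the WT libraries for *CDX2* and *FOXA2* and above them for *GATA6*, while in HT29 *FOXA2* is near 1000 in KO clone 38 and at 0 in KO clone 28 and WT clone 40.

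In HCT116, β-CATENIN loss went with more *FOXA1*, the 1 factor of 5 tested that was called, beside 5.06% of all tested genes. *FOXA1* read 76.1 and 74.3 normalized counts in WT clone 4 and 41.6 and 29.5 in WT clone 6. In KO clone 44 it read 150 and 180, and in KO clone 47 178 and 235. All KO libraries lay above all WT libraries, and the KO mean was 3.36 times the WT mean. The log2 difference was 1.81 ± 0.30 (limma adjusted p = 0.00265), 1.83 without the library that stood apart (adjusted p = 0.00838). With the reads of each clone summed the adjusted p was 0.0532. *TTC6* on the other strand read 0 in the 4 WT libraries and 2.83 to 17.1 in KO, with the highest value in the library that stood apart.

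*CDX2* and *GATA6* moved by less than the fold threshold in HCT116. *CDX2* read 697, 619, 592 and 525 in WT and 478, 421, 425 and 424 in KO, so that the groups did not overlap. The log2 difference was -0.47 ± 0.12 (adjusted p = 0.0281), and it no longer passed without round A of KO clone 47 (adjusted p = 0.06), without 4 other single libraries, without 3 of the 4 clones in turn, with the clone as a random effect (0.0945) or with clones summed (0.257). *GATA6* read 132, 102, 127 and 117 in WT and 177, 166, 222 and 219 in KO, also without overlap. Its log2 difference of 0.70 ± 0.17 (adjusted p = 0.0196) was lost in the same way without round A of KO clone 47 (0.0538), without round B of either WT clone (0.0613 and 0.0504), without KO clone 47 or either WT clone, with the clone as a random effect (0.0686) and with clones summed (0.236). With *FOXA1* these made 3 of 5 factors with an adjusted p under 0.05, against 14% of all tested genes.

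*HNF4A* split the HCT116 KO clones. It read 272 and 320 in WT clone 4, 225 and 177 in WT clone 6, 176 and 160 in KO clone 47, and 15.7 and 8.48 in KO clone 44. Every KO library lay below every WT library, yet the KO clones differed by 3.74 ± 0.29 on the log2 scale (adjusted p = 5.72e-05), and KO against WT did not pass (-2.40 ± 0.98, adjusted p = 0.149). Without KO clone 47 the difference was -4.28 (adjusted p = 1.39e-05), and without KO clone 44 it was -0.53 (adjusted p = 0.223). *HNF4G* read 124, 121, 98.0 and 83.8 in WT and 146, 215, 125 and 161 in KO, with no overlap and a log2 difference of 0.59 ± 0.21 (adjusted p = 0.0887). DESeq2 put its adjusted p at 0.0415. *FOXA2* stayed under the filter with 0 to 10.1 normalized counts, and *CDX1* held no read. *GATA4* had 6 reads in HCT116, all in the library that stood apart, and none in the other 23 libraries of the series.

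In HT29, none of the 5 factors tested was called between KO and WT (2.3% of all tested genes were called, and 2.56% had an adjusted p under 0.05), and 1 factor, *HNF4A*, had an unadjusted p under 0.05 in limma (adjusted p = 0.302). edgeR and DESeq2 also called 0. Leaving out KO clone 28 called *GATA6*, leaving out WT clone 11 called *HNF4A*, and without the filter *CDX1* was called from its 22 reads. The clones of a genotype lay apart instead. *FOXA2* read 111 and 89.2 normalized counts in WT clone 11 and 0 in both rounds of WT clone 40. In KO clone 38 it read 1057 and 927, and in KO clone 28 0 in both rounds. Against a floor of 3 reads over a clone, it was at least 64.2-fold higher in WT clone 11 than in WT clone 40, and at least 658-fold higher in KO clone 38 than in KO clone 28. The difference of KO and WT was 1.65 ± 2.84 (adjusted p = 0.798) and turned to -1.68 without WT clone 40. Without WT clone 11 or KO clone 38 *FOXA2* was under the filter and not tested. *LINC00261* was also found in KO clone 38 (91.1 and 92.0), with at most 3.04 in the other HT29 libraries.

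*HNF4A* read 808 and 812 in HT29 WT clone 11 and 32.6 and 65.1 in WT clone 40, a log2 difference between these clones of -4.10 ± 0.33 (adjusted p = 0.000305). The KO clones read 670 and 739 (clone 28) and 1659 and 1173 (clone 38), below WT clone 11 in clone 28 and above it in clone 38. KO against WT came to 2.34 ± 1.02 (adjusted p = 0.302), to 4.39 without WT clone 11 (adjusted p = 0.00743) and to 0.29 without WT clone 40. *GATA6* read 704 and 636 in WT clone 11 and 390 and 352 in WT clone 40, and 356 and 335 in KO clone 28 against 1468 and 1479 in KO clone 38. Its KO clones differed by 2.09 ± 0.18 (adjusted p = 0.000279), and KO against WT was 0.52 ± 0.55 (adjusted p = 0.662), 1.56 without KO clone 28 (adjusted p = 0.0458) and -0.53 without KO clone 38. *GATA6-AS1* was at 135 and 305 in KO clone 38 and at 1.98 to 24 in the other HT29 libraries. *FOXA2*, *GATA6*, *HNF4A* and *GATA6-AS1* were thus all highest in KO clone 38.

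*FOXA1* was the most abundant factor of HT29. It read 2576, 2728, 2936 and 2786 in WT, 4139 and 4534 in KO clone 28, and 2512 and 1326 in KO clone 38. The KO clones lay on either side of WT, and the log2 difference of KO and WT was 0.03 ± 0.35 (adjusted p = 0.977), 0.65 without KO clone 38 (adjusted p = 0.026). *HNF4G* read 1578 and 1305 in WT clone 11, 645 and 680 in WT clone 40, and 668 to 1173 in KO, with a difference of -0.01 ± 0.33 (adjusted p = 0.996). *CDX2* and *CDX1* were both under the filter. *CDX2* read 1.98 to 9.12 in WT and 2.94 to 19.9 in KO. *CDX1* held 0 reads in the 4 WT libraries and 22 in the 4 KO libraries (2.59 to 9.78 normalized counts, in both KO clones), at least 6.97-fold more against a floor of 3 reads over the WT group.

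**Figure D3:**
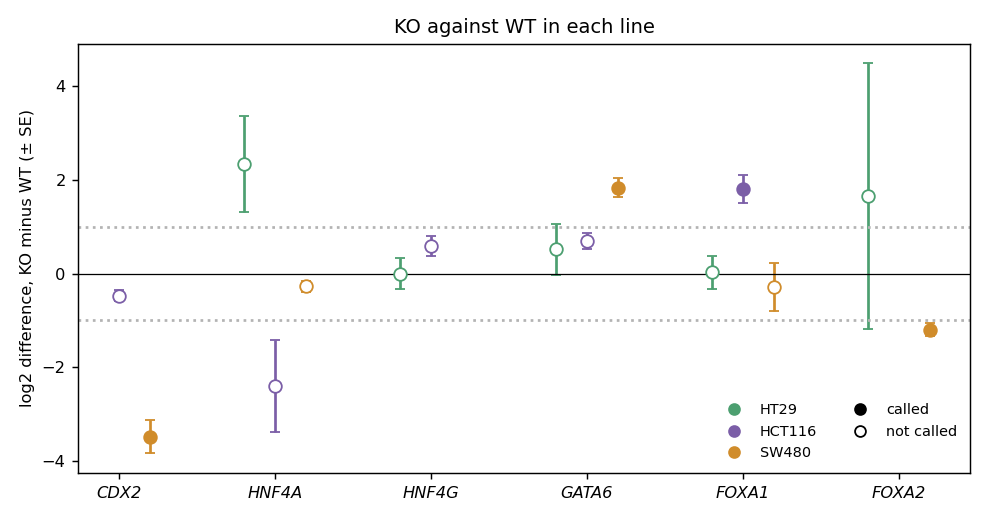
Log2 difference, KO minus WT, of each tested factor in each line, with its standard error, filled where called and open where not. Dotted lines mark the fold threshold of 1. Called are *CDX2*, *FOXA2* and *GATA6* in SW480 and *FOXA1* in HCT116, while the HT29 points are open and the error bar of *FOXA2* spans 2.84 on either side.

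Clones of one genotype were compared for the same 5 factors of each line. The error here came from the rounds of a clone, so these p-values do not measure how clones vary. In HT29, 3 of 5 were called between the WT clones (*HNF4A*, *HNF4G*, *FOXA2*, each higher in clone 11; 7.58% of all genes) and 3 of 5 between the KO clones (*GATA6* and *FOXA2* higher and *FOXA1* lower in clone 38; 12.5% of all genes). In HCT116 it was 0 of 5 between the WT clones (1.44% of all genes) and 1 of 5 between the KO clones (*HNF4A*; 3.28%). No HCT116 WT difference had an unadjusted p under 0.05 except that of *FOXA1* (-1.08 ± 0.25, adjusted p = 0.0579), which passed with the round as a block (adjusted p = 0.00608). edgeR with TMM also called 0 between the WT clones of HCT116 and of SW480. In SW480 it was 0 of 5 between the WT clones (1.97%), where *CDX2* and *HNF4A* had an adjusted p under 0.05 at less than the fold threshold and 3 of 5 an unadjusted p under 0.05, and 1 of 5 between the KO clones (*CDX2*; 4.61%).

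The sum of squares of the log2 values was split by genotype, by clone within a genotype and by round within a clone. In HT29 the part between clones was 60.6% for *HNF4A*, 78.0% for *FOXA1*, 82.2% for *HNF4G*, 90.1% for *GATA6* and 96.3% for *FOXA2*, against a median of 40.7% over all tested genes. In SW480 the part between genotypes was 91.3% for *CDX2*, 92.7% for *FOXA2* and 93.5% for *GATA6*, the factors called there, against a median of 53.0%. It was under the median for *HNF4A* (41.4%, with 54.6% between clones) and *FOXA1* (3.69%, with 65.5% between rounds). In HCT116 the part between genotypes was 80.2% for *CDX2*, 81.5% for *FOXA1*, 82.2% for *GATA6*, 56.8% for *HNF4G* and 43.9% for *HNF4A* (median 24.5%). *HNF4A* had 54.4% between clones there.

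**Figure D4:**
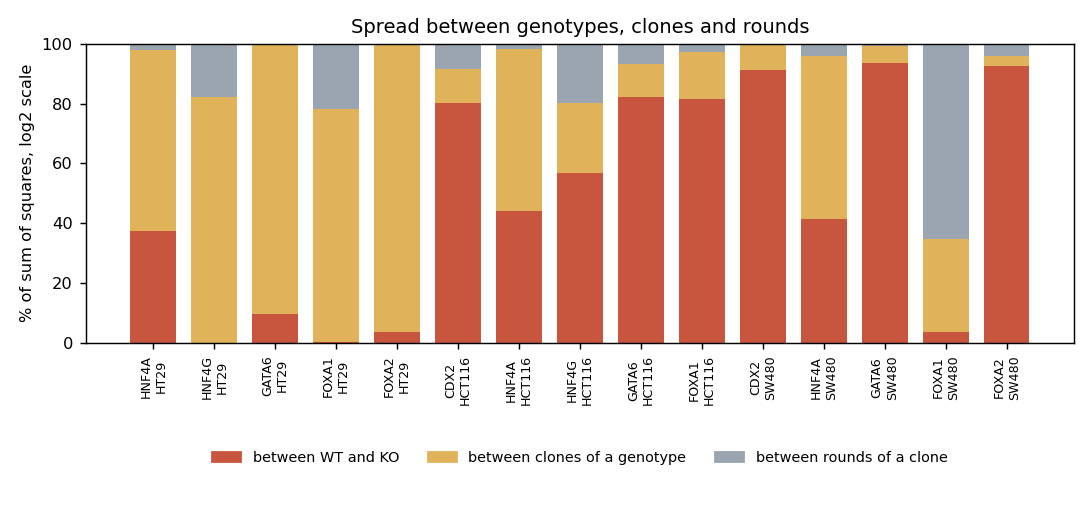
Share of the sum of squares of log2 values, in percent, that lies between WT and KO, between clones sharing a genotype and between the rounds of each clone, for each tested factor and line. The share between clones is over 60% for all 5 factors in HT29. In SW480 the share between WT and KO is over 90% for *CDX2*, *GATA6* and *FOXA2*, 41.4% for *HNF4A* and 3.69% for *FOXA1*.

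The KO effects were compared between lines for 6 factors in 3 pairs of lines, 18 tests, with adjusted p values over all genes. HT29 and HCT116 differed for *HNF4A* (4.75 ± 1.26 on the log2 scale, adjusted p = 0.0237; 5.39% of all genes called). This rested on single clones, with adjusted p of 0.163 without HCT116 KO clone 44 and 0.13 without HT29 WT clone 40. It was also lost in edgeR with TMM (0.142), in DESeq2 (0.103), without the filter on low values (0.0823) and without HT29 KO clone 38 (0.0836) or HCT116 WT clone 4 (0.0912) or 6 (0.0514). HCT116 and SW480 differed for *CDX2* (3.02 ± 0.62, adjusted p = 0.00155) and *FOXA1* (2.10 ± 0.61, adjusted p = 0.024; 10% of all genes called). The *FOXA1* difference had an adjusted p of 0.144 with the clone as a random effect and 0.171 without HCT116 WT clone 6, 0.193 without SW480 WT clone 4 and 0.0838 without HCT116 KO clone 47. It was also lost in edgeR with TMM (0.05) and without round B of HCT116 WT clone 6 (0.0596). The same held for single SW480 libraries: round A of KO clone 17 (0.0551), round B of KO clone 21 (0.0635) and either round of WT clone 4 (0.0583 and 0.0601). *FOXA1* in SW480 was at 17.5 normalized counts or less in both genotypes. HT29 and SW480 differed for *CDX2* (4.43 ± 0.62, adjusted p = 1.83e-05; 12.3% of all genes called), where HT29 *CDX2* was at 19.9 normalized counts or less. *GATA6* rose in SW480 and lay above WT in HCT116, and its effects in these lines did not differ by the test (-1.13 ± 0.53, adjusted p = 0.187). That difference passed when HT29 KO clone 28 or 38 was left out (adjusted p = 0.0117 and 0.00917), while its size stayed at -1.13. HT29 enters this comparison only through the estimate of spread that all groups share.

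Differences between HT29 and another line changed in size when single HT29 clones were left out. Without HT29 KO clone 38 the *GATA6* effect in HT29 was lower than in SW480 by -2.36 (adjusted p = 2.5e-05, against -1.32 and 0.1) and than in HCT116 by -1.23 (adjusted p = 0.0192). Without HT29 KO clone 28 the *FOXA1* effect in HT29 was below that in HCT116 by -2.41 (adjusted p = 0.012, against -1.78 and 0.0809), and the *FOXA2* effect was above that in SW480 by 7.82 (adjusted p = 0.00621). *HNF4G* in SW480 and *FOXA2* in HCT116 were at or near 0 in both genotypes, so their differences between lines only restate the other line.

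Genes linked to these factors were then counted in lists of known intestinal, lipid and gastric genes. Of 25 intestinal epithelial and CDX-linked genes, 16 passed the filter in HT29, 4 in HCT116 and 7 in SW480. In HT29, where *CDX2* was at 19.9 or less, 6 of the 16 rose and 0 fell (2.3% of all tested genes called), with a median log2 difference of 2.35 against 0.03 over all tested genes. *CDH17* and *TM4SF5*, among these 6, were at most 2.96 and 6.72 normalized counts in WT. They passed the filter only through the KO libraries, so their direction was fixed in advance. The carcinoembryonic antigen gene *CEACAM5* went from 68.9 ± 69.7 (SD, n = 4) to 2647 ± 1090 normalized counts (adjusted p = 0.011). The intestinal cadherin gene *CDH17*, a known CDX2 target, went from 0.98 ± 1.40 to 234 ± 248 (adjusted p = 0.0357), with 475 and 421 in KO clone 28 but 22.8 and 18.2 in KO clone 38. The other 4 were the keratin gene *KRT20*, the galectin gene *LGALS4*, *PHGR1* and *TM4SF5*. The count was 2 without KO clone 28, 3 without KO clone 38 and 9 without WT clone 11. With either KO clone left out *CDH17* and *TM4SF5* fell under the filter, so that part of the lower counts was fixed in advance. It was 2 both with the round as a block and where clone was a random effect, 3 in edgeR with TMM and 7 in DESeq2. With the reads of each clone summed, limma called 0 of the 16, and 0 of all 16687 genes tested in HT29 (978 had an unadjusted p under 0.05), so that none of the HT29 list calls passed with summed clones.

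In HCT116, 1 of 4 tested intestinal genes fell and 0 rose (5.06% of all tested genes called). *KRT20* went from 77.8 ± 19.2 to 0.48 ± 0.56 (adjusted p = 3.5e-06), the opposite direction to HT29, and it dropped under the filter when either WT clone was left out. In HCT116 it passed the filter only through the WT libraries. In SW480, where *CDX2* fell, 2 of 7 rose and 0 fell (17.5% of all tested genes called). The mucin gene *MUC13* went from 184 ± 102 to 1856 ± 138 (adjusted p = 4.74e-05) and *MUC2*, the main secreted mucin of goblet cells, from 2.68 ± 1.51 to 40.1 ± 25.2 (adjusted p = 0.000356). The median over the 7 was 0.75 against 0.00 over all tested genes, and the count was 1 without either KO clone. *MUC2* was at most 4.04 in SW480 WT and passed the filter only through the KO libraries. It fell under the filter when either KO clone was left out, so this lower count was fixed in advance.

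Of 25 HNF4-linked lipid and metabolic genes, 0 of 9 tested were called in HT29 (2 had an unadjusted p under 0.05, and edgeR and DESeq2 called 0), 2 of 4 in HCT116 and 4 of 6 in SW480, beside 2.3%, 5.06% and 17.5% of all tested genes. In HCT116 the acyl-CoA synthetase gene *ACSL5* fell from 6210 ± 2801 to 2031 ± 810 (adjusted p = 0.0303), and *CREB3L3*, a liver and gut factor of lipid genes, from 21.6 ± 6.07 to 6.13 ± 1.29 (adjusted p = 0.00773). *CREB3L3* was at most 7.54 in HCT116 KO and passed the filter only through WT libraries. It fell under the filter when either WT clone was left out. With the round as a block 1 was called, without KO clone 47 or WT clone 6 1, and without WT clone 4 or with summed clones 0. In SW480 the same genes rose, *ACSL5* from 239 ± 96.7 to 3570 ± 150 (adjusted p = 8.87e-07) and *CREB3L3* from 0.73 ± 1.47 to 171 ± 106 (adjusted p = 7.39e-06). The sterol 27-hydroxylase gene *CYP27A1* also rose (adjusted p = 0.00371), and the bilirubin-conjugating *UGT1A1* fell from 17.5 ± 5.11 to 0 in all 4 KO libraries. *CREB3L3* was at most 2.94 in SW480 WT and passed the filter only through KO libraries, and *UGT1A1* only through WT libraries. Without KO clone 21 the SW480 count was 2, with *CREB3L3* under the filter. In HT29 the lipid-binding protein gene *FABP1* read 133 ± 166 in WT and 1140 ± 1409 in KO (adjusted p = 0.499).

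Other endoderm and gut transcription factors were called in 1 of 14 tested in HT29, 2 of 15 in HCT116 and 7 of 15 in SW480, against 2.3%, 5.06% and 17.5% of all tested genes. *FOXA3*, the third FOXA gene, rose in HT29 from 116 ± 7.07 to 292 ± 66.3 (adjusted p = 0.0167), and this call was lost without either WT clone, with the clone as a random effect (adjusted p = 0.106) and with summed clones (adjusted p = 0.697), while the HT29 count was 2 without KO clone 28 and 3 without KO clone 38. The epithelial ETS factor *ELF3* rose in HCT116, from 588 ± 147 to 3297 ± 662 (adjusted p = 1.28e-05), and in SW480, from 53.7 ± 3.36 to 614 ± 9.86 (adjusted p = 3.58e-09). The nuclear receptor *NR5A2* rose in HCT116 from 48.5 ± 21.2 to 111 ± 7.04 (adjusted p = 0.0119), and the HCT116 count was 1 without KO clone 44, without WT clone 4 or with summed clones. In SW480 *NR5A2* fell instead, from 21.9 ± 8.01 to 7.27 ± 6.45 (adjusted p = 0.0143, and 0.101 with summed clones). In SW480 *KLF4*, a factor of differentiated epithelium, rose from 223 ± 37.7 to 1242 ± 45.9 (adjusted p = 1.25e-07) and *KLF5*, a factor of the crypt, fell from 2947 ± 618 to 1129 ± 227 (adjusted p = 0.000114). The homeobox gene *MNX1* fell there too, from 390 ± 25.9 to 63.6 ± 22.2 (adjusted p = 5.09e-06).

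Of the gastric and foregut genes, 3 of 8 tested rose in HT29 and 5 did not pass (2.3% of all tested genes called), with 1 of 4 called in SW480 (17.5%) and 0 of 2 in HCT116 by limma, edgeR or DESeq2 (0 with an unadjusted p under 0.05). The gastric mucin gene *MUC5AC* went from 49.7 ± 20.1 to 6971 ± 2941 (adjusted p = 5.68e-05) in HT29, and *VSIG1*, a gastric junction gene, from 0.24 ± 0.48 to 348 ± 205 (adjusted p = 9.16e-05). *VSIG1* was at most 0.96 in HT29 WT and passed the filter only through the KO libraries. *ANXA10* rose as well (adjusted p = 0.00647), and the count was 2 without WT clone 11, 5 in DESeq2 and 0 with summed clones (adjusted p = 0.0625 for *MUC5AC* and 0.141 for *VSIG1*). *TFF2* read 126 ± 106 in HT29 WT and 81.1 ± 88.6 in KO (adjusted p = 0.686). In SW480 the trefoil peptide gene *TFF2* rose from 16.4 ± 6.96 to 310.1 ± 89.5 (adjusted p = 1.4e-06), and the count was 2 without either KO clone. Among the epithelial markers *KRT19* rose in HT29 (24070 ± 1541 to 71890 ± 19370, adjusted p = 0.00537, not called without WT clone 40, nor with summed clones at an adjusted p of 0.292) and *CDH1* in HCT116 (1481 ± 215 to 3323 ± 382, adjusted p = 0.000197). *EPCAM*, an epithelial adhesion gene, read 1645 ± 462 in SW480 WT and 818 ± 175 in KO, with an adjusted p of 0.00388 at a log2 difference of -0.99, just under the fold threshold. It was called in edgeR with TMM (-1.02), in DESeq2, without KO clone 17 (-1.26) and without WT clone 4 (-1.33), and its adjusted p was 0.0637 with summed clones. The difference shrank to -0.72 without KO clone 21 (adjusted p = 0.068) and to -0.64 without WT clone 5 (adjusted p = 0.0368). Of 6 markers of other cell types tested in SW480, 2 rose and 2 fell (17.5% of all tested genes called). The collagen gene *COL1A2* fell from 81.7 ± 37.7 to 0.46 ± 0.54, *CD14* rose from 37.4 ± 6.92 to 172 ± 28.4 and *VWF* from 20.2 ± 8.70 to 161 ± 54.5. *COL1A2* was at most 0.94 in SW480 KO and passed the filter only through the WT libraries, so its direction was fixed in advance. Without WT clone 4, *COL1A2* was under the filter and *CD14* and *VWF* were still called. *PTPRC* was at 0 in the 4 WT libraries and *CD3E* at 0 in the 4 KO libraries, and each had reads in the other genotype. The part of these markers in the SW480 results was not tested.

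Genes with the profile most like each factor were taken over the 12 clone means, among 12983 genes whose mean reached 100 normalized counts in some group. These clones share lines and, within a line, a parental background, so the values are descriptions. *CDX2* was closest to the bacterial sensor gene *NOD2* (Pearson's r = 0.99, and 0.96 after the mean of each line was removed), followed by *CCDC3* and *RRM2B*. *GATA6* was closest to the aldo-keto reductase gene *AKR1B10* (r = 0.97, and 0.93 within lines), then *TMEM126B* and *TMEM126A*. *FOXA2* was closest to *TPRKB* (r = 0.96 and 0.95 within lines), *TENM3-AS1* and *PTRHD1*, and *HNF4A* to *TRIM3* (r = 0.90 and 0.91 within lines), *TRUB2* and *LIG4*. For *HNF4G* (*LINC00992*, *C1orf210*, *FAM110C*) and *FOXA1* (*DEGS2*, *ADAP1*, *TMUB1*) the r of 0.99 went mostly with the line, since it was 0.41 to 0.74 within lines.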

How the data were processed

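RNA-seq was compared in 24 libraries from 12 clones. Total RNA was made into libraries with a TruSeq kit that does not mark strand, and the authors used STAR 2.7.5b on GRCh37 for alignment and featureCounts 2.0.1 for counts per gene. The deposited values per library are a signal, gene counts divided by 1 DESeq2 size factor per library. Dividing by the smallest step gave whole reads for 100% of values, within 0.01 read. The authors also deposited their own tables of DEGs with fold changes and p-values, which were not used. Symbols were matched for 95.8% of identifiers.

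The tests were limma 3.58.1 (mean-variance trend, robust) on log2 of the value plus 1, for genes that reached 10 in 4 or more libraries, of the 8 in a line or, between lines, of all 24. Within a line, a gene under 10 throughout 1 genotype passed only through the other genotype, so its direction was fixed in advance. DEGs had a Benjamini-Hochberg adjusted p under 0.05 and an absolute log2 difference over 1. The fit treats the rounds of a clone as separate libraries, so its p-values for KO against WT and between lines measure the spread between libraries and clones together. Comparisons of clones of one genotype took their error from the rounds of a clone only. Alternatives were DESeq2 1.42.0, edgeR 4.0.16 (TMM or RLE), clones summed or taken as a random effect, a block for the round, pseudocounts of 0.1 and 5, other filters, and each library and clone left out. Scripts were tested on simulated data. A gene with 3 reads or fewer over a group or clone was taken as at its floor, which covers counting error only. Rounds A and B paired the HCT116 libraries (r across genes of the round differences of 0.182 to 0.374 in 6 of 6 clone pairs), but not those of HT29 (2 of 6 over 0.1) or SW480 (1 of 6).

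The factors, gene lists and rules were chosen with earlier results of these data known. Named genes were the 8 factors, *CTNNB1*, and from each list and line the 2 called genes that rose most and the 2 that fell most at a mean of at least 50 in one genotype. Similar genes were the 3 with the highest r. Called list genes named beyond these, such as *MUC2*, *CYP27A1*, *UGT1A1*, *KRT20*, *LGALS4*, *PHGR1* and *TM4SF5* in HT29, *CREB3L3* in HCT116, *ANXA10*, and also *FABP1*, *EPCAM*, *NR5A2* in SW480, *TFF2* in HT29 and *LINC00261*, were chosen after their values were seen. Some called list genes are counted but not reported here by name.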

Additional observations from a re-analysis of the deposited data

Results flagged for a closer look

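In HCT116 KO, *CDX2* in round A of clone 44 (478.5 normalized counts) lay above the other 3 libraries of the group, which were within 421 to 425. *GATA4* in round A of HCT116 KO clone 47 (6.42 normalized counts) was the one library of the group, and of the series, with any read of this gene. *FOXA2* in round A of SW480 WT clone 5 (500.0 normalized counts) lay above the other 3 libraries, which were at 402 to 409. These were 3 of 36 groups looked at by the gap to the nearest library, relative to the range of the group. About 1 in 20 would stand apart by chance.

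The KO effect differed between lines for 3 factors. For *HNF4A* the effect in HT29 was 4.75 higher on the log2 scale than in HCT116 (limma adjusted p = 0.0237). For *CDX2* it was 4.43 higher in HT29 than in SW480 (adjusted p = 1.83e-05) and 3.02 higher in HCT116 than in SW480 (adjusted p = 0.00155). For *FOXA1* it was 2.10 higher in HCT116 than in SW480 (adjusted p = 0.024). The 3 comparisons share libraries, and how the values depend on single clones is given with the results above.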

How the results depend on the processing

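Over the 15 differences of KO and WT in single factors, 314 values were obtained under the alternatives, of which 273 kept the direction and side of the adjusted p threshold, 20 lost it, 7 gained it and 14 changed sign. All 14 changes of sign were in differences that had not passed. The 3 calls in SW480 kept their direction and an adjusted p under 0.05 in every alternative run for them, as did the *FOXA1* call in HCT116 except with summed clones. The summed-clone fit tests 2 against 2, which leaves fewer samples, and the causes of the other changes were not tested.

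The number of factors called in HT29 (0) was 1 without a filter on low values, and 0 to 1 with a library or clone left out. In HCT116 (1) it was 0 with summed clones and 1 to 2 with a library or clone left out (2 without KO clone 47). The number of called differences of the KO effect between lines (4) was 2 in edgeR with TMM, 0 with at least 10 in every library (which tests fewer genes), and 2 (without HCT116 WT clone 6) to 9 (without HT29 KO clone 28) with a library or clone left out. With the same filter the called WT differences fell from 13 to 3 and the called clone differences from 8 to 5.

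With a library or clone left out, the KO minus WT difference in HT29 ran from -0.56 to 0.55 for *HNF4G* (0.0004 with summed clones), from -0.59 to 0.65 for *FOXA1*, from -0.53 to 1.56 for *GATA6* and from -1.68 to 6.63 for *FOXA2*, and in SW480 from -0.87 to 0.049 for *FOXA1*. Between lines, the KO effect in HT29 minus that in HCT116 ran from -1.23 to 0.86 for *GATA6* (0.092 in DESeq2, 0.068 in edgeR with TMM and 0.0925 with RLE, against -0.18) and from -3.01 to 6.95 for *FOXA2*. That in HT29 minus SW480 ran from -0.56 to 0.55 for *HNF4G*, from -0.31 to 0.94 for *FOXA1* and from -2.13 to 7.82 for *FOXA2*, and that in HCT116 minus SW480 from -0.55 to 2.30 for *FOXA2*. WT HT29 minus HCT116 ran from -1.43 to 5.23 for *FOXA2* and from -2.37 to 1.73 for *HNF4A* (0.79 in DESeq2, 0.81 in edgeR with TMM and 0.79 with RLE, against -0.32), and WT HT29 minus SW480 from -3.58 to 0.52 for *HNF4A*.

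With the round as a replicate block, the number of factors called stayed at 0, 1 and 3 in HT29, HCT116 and SW480, and in all genes of HT29 343 calls became 217. Between HCT116 WT clones the block raised the calls over all genes from 222 to 424. The number of called intestinal genes in HT29 (6) was 2 with the block and 3 in edgeR with TMM. Summed clones and the clone as a random effect were applied to the gene lists after seeing the data. Genes at a few reads, here *CDX1*, *GATA4*, *CDX2* in HT29 and *FOXA2* in HCT116, are limited by depth.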
